A study of Bos taurus with 6 samples.

Results

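The genes described here encode the antioxidant and glutathione system of the bovine blastocyst, the NRF2 and FOXO transcription factors that act on it, ferritins and metallothioneins. Members were the rows of the deposited count table whose name is 1 of 48 listed symbols. Of these, 42 were present, out of 12826 genes in the table, and all 42 had enough counts to be tested, among 12732 tested genes. GPX7, GPX8, GSTP1, GSTO1, MT1A and MT1E had no row of exactly that name and were not analysed as members. Rows named GSTP1 and MT1E with a numbered suffix are described apart from the members below.

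The libraries came from pools of Bos taurus blastocysts at day 7, produced in vitro from slaughterhouse material. Embryos of 3 libraries had been treated with beta-hydroxybutyrate (BHB) and those of 3 control libraries had not. BHB is the main circulating ketone body. No source used here states the BHB dose, how long embryos were exposed or how many embryos a pool held. Separate collections are not stated either, and p-values thus measure only the spread among the 6 libraries. A refit of the authors' deposited p-values, described under the processing, recovered a pairing of each control library with the BHB library of the same number, called pairs 1 to 3 below. What the libraries of a pair had in common is not stated.

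Superoxide dismutases turn superoxide into hydrogen peroxide, which catalase, glutathione peroxidases and peroxiredoxins remove. Glutathione and thioredoxin carry the electrons for glutathione peroxidases and peroxiredoxins and are kept reduced by NADPH. The factor NRF2 (gene NFE2L2), held down by KEAP1, drives many of these genes under oxidative stress, and FOXO factors act on SOD2 and catalase, among others. BHB has been reported to inhibit class I histone deacetylases and, in mouse kidney, to raise Foxo3a and metallothionein 2, which is why FOXO and metallothionein genes stand beside the antioxidant enzymes here. In the early embryo these systems are known for limiting the harm of culture in high oxygen.

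Total counts ran from 6440732 to 8176648 per library, and the 42 members together took 0.865% to 1.18% of them. Levels are in CPM (counts scaled to one common library total, after TMM normalization). They are not scaled by gene length and so are compared between libraries and not between genes. A single count was worth 0.117 to 0.146 CPM. The median level was 45.6 CPM for the members and 19.6 CPM for all tested genes, and tests have more precision at higher levels. POU5F1, listed here with the epiblast and inner cell mass markers (268 to 323 CPM), and the trophectoderm factor GATA3 (121 to 168 CPM) were detected in every library. Of markers of other cells, 3 of 15 cumulus and granulosa symbols (summed 29.6 to 37.5 CPM in control pools, 28.2 to 35.3 CPM in BHB pools) and 2 of 11 blood and immune symbols (4.51 to 8.41 and 7.06 to 9.43 CPM) were among the tested genes. Of 8 fibroblast and stromal symbols 7 were tested, with summed levels of 132.2, 128.2 and 196.0 CPM in control pools and 107.9, 136.4 and 83.75 CPM in BHB pools. Of these 7, 5 had a negative log2 fold change (median -0.38), and VIM and POSTN were lower at an unadjusted p under 0.05, with 0 called by edgeR.

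None of the 42 members passed the test between BHB and control blastocysts. The largest difference was in SRXN1, which encodes sulfiredoxin, the enzyme that repairs over-oxidized peroxiredoxins: its mean level was 13.6 CPM in control pools and 6.75 CPM in BHB pools, but it did not pass after adjustment over all genes. FOXO3 was lower in pairs 1 and 3 and nearly equal in pair 2, and MT2A was lower in pair 1 and higher in pairs 2 and 3. The differences that did pass among these genes were between pairs, in thioredoxin (TXN), ferritin heavy chain (FTH1) and the peroxiredoxins PRDX1 and PRDX3, all highest in pair 1. By edgeR's quasi-likelihood test with Benjamini-Hochberg adjustment at 0.05, 0 of 42 members and 0% of all tested genes were called for BHB. At an unadjusted p under 0.05 there was 1 member (SRXN1), against 2.73% of all genes. DESeq2's Wald test and limma-voom also called 0 members, against 0.0468% and 0% of all genes, each with 1 member at an unadjusted p under 0.05, against 2.32% and 2.64%. Within pairs edgeR and DESeq2 both called 0 members, against 0% and 0.339% of all genes, with 2 and 1 members at an unadjusted p under 0.05, against 8.2% and 4.64%.

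Sulfiredoxin and the peroxiredoxins are described first, since SRXN1 had the largest log2 fold change of the members. SRXN1 was measured at 12.8, 10.3 and 17.5 CPM in control libraries 1 to 3 and at 5.66, 8.17 and 6.42 CPM in BHB libraries 1 to 3. Every BHB library lay below every control. The mean was 13.6 ± 3.63 CPM (SD, n = 3) in controls and 6.75 ± 1.29 CPM (SD, n = 3) with BHB, a log2 fold change of -1.01 (SE 0.29, 95% interval -1.66 to -0.35, edgeR unadjusted p = 0.0066, adjusted p = 0.999). Compared within pairs, the differences of log2 CPM were -1.14, -0.33 and -1.41 in pairs 1, 2 and 3 (log2 fold change -0.99, SE 0.27, edgeR adjusted p = 0.40). Its unadjusted p stayed under 0.05 in each of the 14 alternative settings run on single members (0.0031 to 0.031), and its adjusted p above 0.05 in each of them (0.40 to 0.9999). Those settings do not include leaving out a whole pair. Without pair 3, the unpaired edgeR fit had 0 members at an unadjusted p under 0.05, so SRXN1 was not under it there. The fibroblast and stromal marker VIM, named after its values were seen, was also lower in 3 of 3 pairs. It was lower by 1.33, 0.32 and 1.96 on the log2 scale in pairs 1 to 3. Of the 7 tested markers of that list only 1, VIM, was lower in 3 of 3 pairs, and 2 had a positive log2 fold change. The median difference of the list was -0.50, 0.28 and -1.69 in pairs 1 to 3. The part of other cells in the SRXN1 difference was not tested.

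The peroxiredoxins are thiol peroxidases of cytosol, mitochondria and secretory pathway. In PRDX1 to PRDX6 the log2 fold changes ran from -0.24 (PRDX5, SE 0.23) to 0.06 (PRDX4, SE 0.15), and BHB and control libraries overlapped in all 6. PRDX2, which is cytosolic, was at 1062, 744 and 746 CPM in control pools and 786, 751 and 718 CPM in BHB pools. Only control library 1 stood above the rest, and the other 5 libraries lay close together. PRDX6, which reduces oxidized phospholipids, was at 633, 473 and 409 CPM in control pools and 486, 495 and 334 CPM in BHB pools, so that the libraries of pair 3 were the lowest of their groups.

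**Figure D1:**
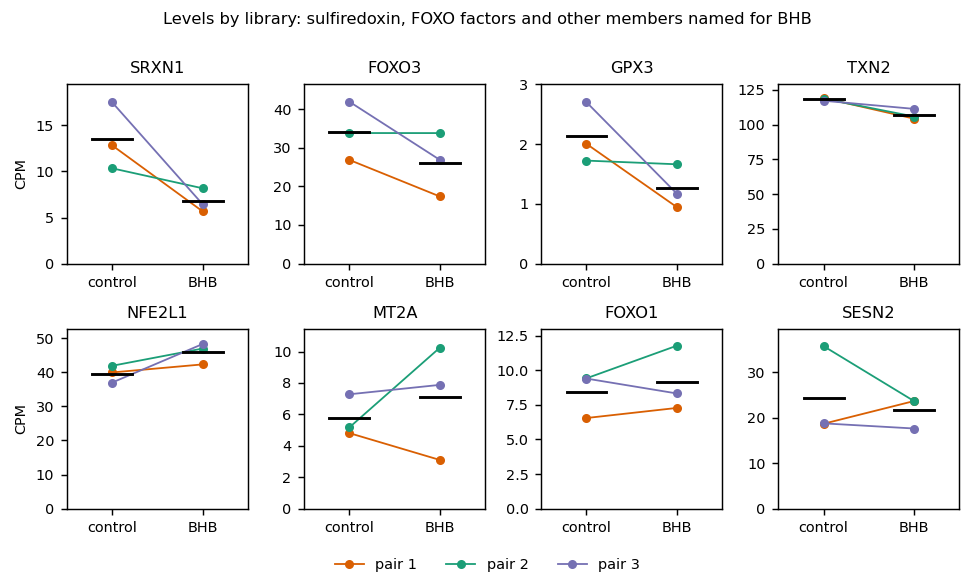
CPM (y axis, from 0) of 8 members in control and BHB libraries (x axis); points are libraries, coloured lines join the libraries of a pair and black bars are group means. SRXN1 was lower with BHB in every pair (10.3 to 17.5 CPM in controls, 5.66 to 8.17 CPM in BHB pools), while MT2A was lower in pair 1 and higher in pairs 2 and 3.

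Among enzymes that act directly on superoxide and peroxide, none differed beyond the spread. Catalase (CAT) was at 94.7, 83.3 and 94.9 CPM in control pools and 110.1, 93.1 and 106.9 CPM in BHB pools. It was higher in 3 of 3 pairs, though BHB library 2 lay below 2 of the controls (log2 fold change 0.18, 95% interval -0.12 to 0.49). SOD1, the cytosolic superoxide dismutase, was at 240.2, 166 and 205 CPM in control pools and 203, 244 and 202 CPM in BHB pools. The groups overlapped and pair 2 went against pair 1, with differences of 0.55 and -0.24 on the log2 scale. SOD2, the mitochondrial dismutase and a known FOXO target, was at 91.0, 94.9 and 74.9 CPM in control pools and 71.8, 92.9 and 74.7 CPM in BHB pools. Its difference lay mostly in pair 1 (-0.34, against -0.03 and -0.004 in pairs 2 and 3).

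Glutathione peroxidases reduce peroxides with glutathione, and GPX4 acts on lipid peroxides in membranes. GPX3, the secreted form, was at 2.00, 1.72 and 2.70 CPM in control pools and 0.94, 1.66 and 1.17 CPM in BHB pools. These levels rest on as few as 7 counts in a library. The groups did not overlap, but control library 2 and BHB library 2 were nearly equal (log2 fold change -0.77, 95% interval -1.80 to 0.27). GPX4 was lower with BHB in 3 of 3 pairs (181 ± 25.4 CPM in controls, 158 ± 20.6 CPM in BHB pools, SD, n = 3 each) and GPX1, the cytosolic form, was higher in 3 of 3 pairs (111 ± 18.8 and 126 ± 21.2 CPM), and in both the groups overlapped.

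The thioredoxin system reduces disulfides in proteins and supplies peroxiredoxins. TXN2, the mitochondrial thioredoxin, was at 119, 119 and 117 CPM in control pools and 104, 106 and 111 CPM in BHB pools. The groups did not overlap, but the difference was small (log2 fold change -0.14, 95% interval -0.41 to 0.13). TXNRD1, the cytosolic thioredoxin reductase, averaged 337 ± 52.7 CPM in control pools and 344 ± 5.36 CPM in BHB pools (SD, n = 3 each; log2 fold change 0.03, 95% interval -0.28 to 0.34). TXNIP, which binds and blocks thioredoxin and responds to glucose, was at 7.88, 2.92 and 4.34 CPM in control pools and 6.87, 1.66 and 5.11 CPM in BHB pools. Both libraries of pair 1 were higher than the other 4, and both of pair 2 were the lowest of their group, whatever the treatment.

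Genes that make, recycle or use glutathione had no shared direction. GCLC and GCLM, the catalytic and modifier subunits of the rate-limiting enzyme of glutathione synthesis, had log2 fold changes of 0.17 (SE 0.26) and 0.07 (SE 0.24), and GSS, the enzyme of the second step, of -0.28 (SE 0.27). GSR, which reduces oxidized glutathione, was at 39.5, 24.1 and 65.6 CPM in control pools and 65.9, 40.4 and 54.9 CPM in BHB pools. It was higher with BHB in pairs 1 and 2 by 0.73 and 0.74 on the log2 scale and lower in pair 3 by 0.26, and the controls spanned the level of every BHB library except library 1. The 4 glutaredoxins had log2 fold changes from -0.27 (GLRX5, which serves iron-sulfur cluster assembly) to -0.11 (GLRX3), with groups that overlapped in each. The sign turned without control library 1 in GLRX (0.15), without control library 3 in GLRX5 (0.047) and without BHB library 1 in GLRX2 (0.018). The transferases GSTM3, MGST1 and MGST3, which conjugate glutathione to electrophiles or protect membranes, had log2 fold changes of 0.21 (SE 0.41), -0.05 (SE 0.19) and -0.03 (SE 0.27). A row named GSTP1 with a numbered suffix was outside the rule for members and named after its values were seen. It was at 289 to 417 CPM in control pools and 308 to 337 CPM in BHB pools (log2 fold change -0.20, SE 0.16).

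The regulators of the NRF2 pathway differed little. NFE2L2 itself was at 199.96, 246 and 206 CPM in control pools and 192, 209 and 188 CPM in BHB pools. It was lower in 3 of 3 pairs by 0.06 to 0.24 on the log2 scale, with groups that overlapped (log2 fold change -0.15, 95% interval -0.45 to 0.15). KEAP1, its inhibitor, was at 34.6, 34.1 and 26.4 CPM in control pools and 28.4, 29.1 and 28.6 CPM in BHB pools. The BHB libraries lay within the control range. NFE2L1, a related factor that also drives proteasome genes, was at 39.9, 41.9 and 37.0 CPM in control pools and 42.3, 46.9 and 48.3 CPM in BHB pools. The groups did not overlap (log2 fold change 0.21, SE 0.15, edgeR unadjusted p = 0.19, adjusted p = 0.999). BACH1, a repressor at the same DNA elements, had a log2 fold change of 0.10 (SE 0.19).

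Other well-known NRF2 targets, and the genes of heme and iron beside them, did not pass either. NQO1, a quinone reductase, was at 6.81, 3.05 and 2.94 CPM in control pools and 3.64, 2.63 and 5.40 CPM in BHB pools. It was lower in pair 1 by 0.86 and higher in pair 3 by 0.82 on the log2 scale. HMOX1, the inducible heme oxygenase, was at 6.01, 9.28 and 9.51 CPM in control pools and 5.39, 15.9 and 12.5 CPM in BHB pools. The lowest and the highest library both belonged to the BHB group (log2 fold change 0.45, 95% interval -0.44 to 1.33). The log2 fold change was 0.12 without BHB library 2 and 0.78 without BHB library 1 (edgeR unadjusted p = 0.033, adjusted p = 0.99). HMOX2, the constitutive form, was lower in 3 of 3 pairs (37.9 ± 8.23 CPM in controls, 29.9 ± 5.95 CPM in BHB pools, SD, n = 3 each; within pairs edgeR unadjusted p = 0.052, adjusted p = 0.61). The ferritin light chain FTL was at 332 ± 67.4 CPM in control pools and 291 ± 24.1 CPM in BHB pools, and was also lower in 3 of 3 pairs. Ferritin genes have processed copies in mammalian genomes, so their reads could be split.

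FOXO3, which responds to stress and nutrient signals, was at 26.8, 33.8 and 41.9 CPM in control pools and 17.4, 33.8 and 26.8 CPM in BHB pools. BHB libraries 1 and 3 lay at or below the lowest control, and BHB library 2 equalled control library 2. The log2 fold change was -0.40 (SE 0.27, 95% interval -0.99 to 0.20). Within pairs it was -0.42 (95% interval -0.82 to -0.02, edgeR unadjusted p = 0.041, adjusted p = 0.59), from differences of -0.62, -0.0007 and -0.64 in pairs 1 to 3. Without BHB library 1 the log2 fold change was -0.17, without control library 3 it was -0.22 and without BHB library 2 it was -0.63. FOXO1, its insulin-controlled relative, was at 6.55, 9.41 and 9.39 CPM in control pools and 7.27, 11.8 and 8.32 CPM in BHB pools. Its groups overlapped and pair 1 was the lowest of both. SESN2, a stress-induced sestrin, was at 18.7, 35.8 and 18.8 CPM in control pools and 23.7, 23.7 and 17.7 CPM in BHB pools, and control library 2 alone stood apart.

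MT2A was the only metallothionein among the members that was present. Metallothioneins bind zinc and other metals through many cysteines and can scavenge oxidants. MT2A was at 4.81, 5.17 and 7.28 CPM in control pools and 3.10, 10.2 and 7.88 CPM in BHB pools. The BHB libraries enclosed the control range, with differences of -0.59, 0.95 and 0.11 on the log2 scale in pairs 1 to 3 (log2 fold change 0.29, 95% interval -0.68 to 1.26). A row named MT1E with a numbered suffix, outside the rule and named after its values were seen, was at 3.47, 10.9 and 11.5 CPM in control pools and 2.02, 10.4 and 8.46 CPM in BHB pools. It was lower with BHB in 3 of 3 pairs (log2 fold change -0.31, SE 0.59). Metallothionein genes are near copies of each other, so the level of either row is uncertain.

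As a list, 27 of 42 members (64.3%) had a negative log2 fold change, against 50.9% of all tested genes, with a median of -0.11 against -0.005. In 12 members (28.6%) the BHB library was lower in 3 of 3 pairs, against 15.7% of all genes, and in 3 (7.14%) it was higher in 3 of 3, against 14.5%. The 3 were CAT, GPX1 and NFE2L1. Groups did not overlap in 4 members (9.52%), against 7.84% of all genes: SRXN1, GPX3 and TXN2 were lower and NFE2L1 was higher. These counts lean on pair 1, in which 33 of 42 members were lower with BHB (median difference -0.23 on the log2 scale), whereas 19 were lower in pair 2 (median 0.07) and 23 in pair 3 (median -0.03). Without pair 1, 21 of 42 members were negative and the median was 0.005. Without control library 1 alone, 19 were negative and the median was 0.02, and with scaling by library size alone 22 were negative. The summed level of the trophectoderm markers was also lower with BHB in 3 of 3 pairs. It was 20040, 19030 and 13150 CPM in control pools and 17220, 15200 and 10190 CPM in BHB pools. Of these 13 markers 9 were negative (median -0.09), with 6 lower and 3 higher in 3 of 3 pairs. Unlike the sum, their median difference was positive in pair 2 (-0.09, 0.12 and -0.16 on the log2 scale in pairs 1 to 3). The summed level of the fibroblast and stromal markers was lower in pairs 1 and 3. Of epiblast and inner cell mass markers 8 of 11 were higher with BHB (median 0.15), with 2 higher and 1 lower in 3 of 3 pairs. Of primitive endoderm markers 6 of 12 were higher. The part of cell makeup in the members' lean was not tested.

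**Figure D2:**
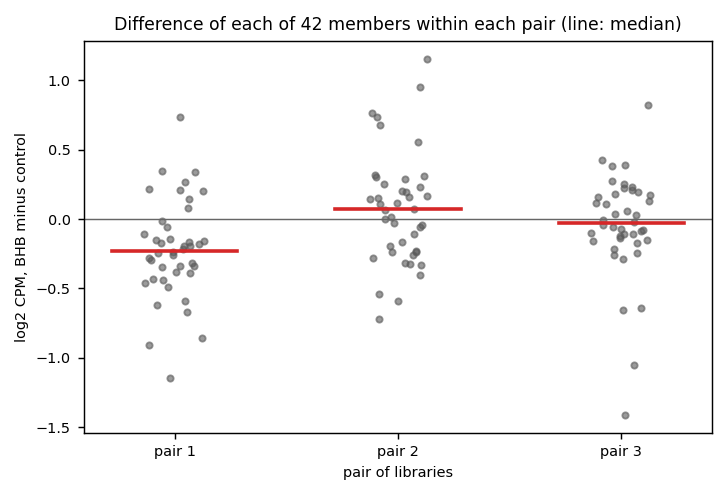
Difference of log2 CPM, BHB minus control (y axis), for each of the 42 members (points) within each pair of libraries (x axis), with the median as a red line. The median was -0.23 in pair 1, 0.07 in pair 2 and -0.03 in pair 3.

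The intervals show which sizes of change these libraries leave room for. In 33 of 42 members the 95% interval lay wholly within a log2 fold change of -1 to 1, against 66.6% of all tested genes, and within pairs in 38, against 74%. The 9 members with wider intervals were GPX3, SRXN1, TXNRD2, TXNIP, GSR, GSTM3, NQO1, HMOX1 and MT2A, and all of them except GSR had both group means under 15 CPM. SRXN1 was the only member whose unpaired interval excluded a log2 fold change of 0.

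**Figure D3:**
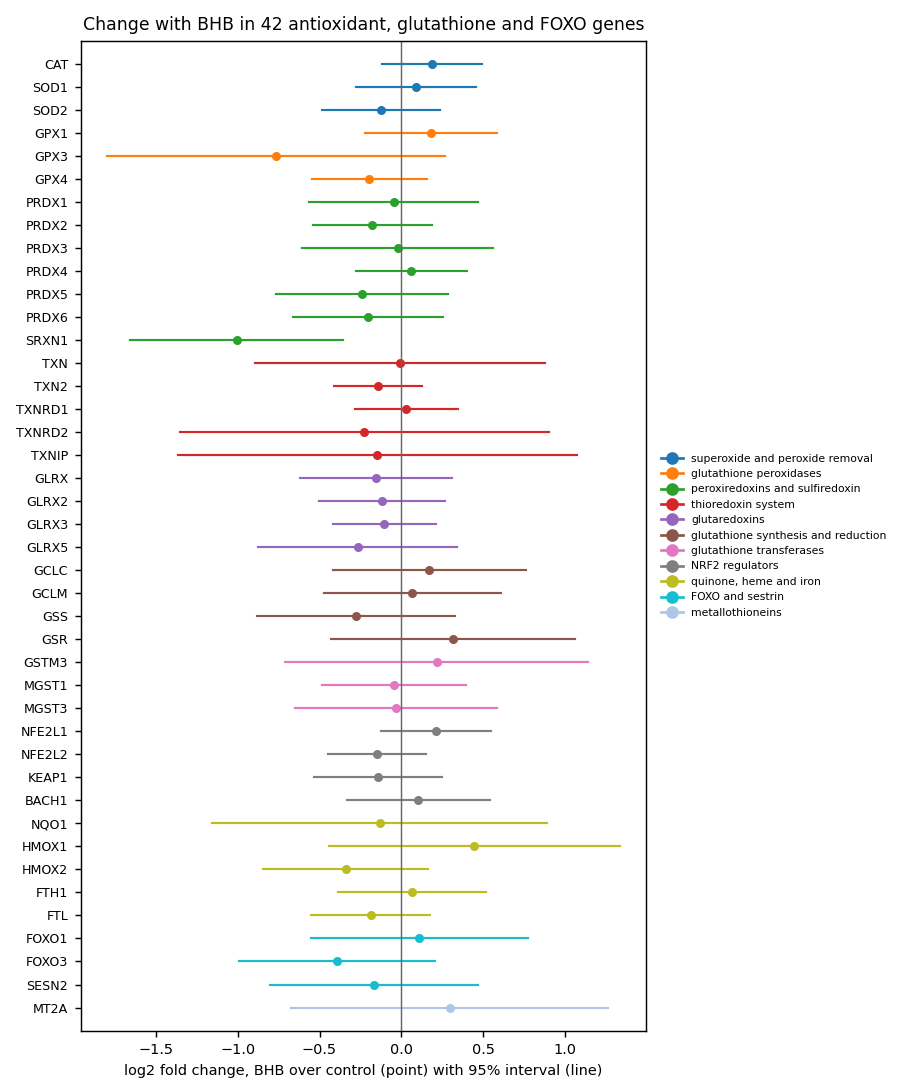
Log2 fold change of BHB over control (x axis, points) with its 95% interval (lines) for the 42 members (y axis), coloured by role. The points run from -1.01 (SRXN1) to 0.45 (HMOX1), and the interval of SRXN1 alone lies on 1 side of 0.

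Between pairs, with treatment in the model, 4 of 42 members (9.52%) passed edgeR's test, against 4.12% of all tested genes. They were TXN (adjusted p = 0.0071), FTH1 (adjusted p = 0.025), PRDX3 (adjusted p = 0.027) and PRDX1 (adjusted p = 0.034). At an unadjusted p under 0.05 there were 16 members (38.1%), against 20.6% of all genes. In 10 of the 16 pair 1 was highest, in 3 pair 2 (HMOX1, FOXO3 and SESN2) and in 3 pair 3 (GPX1, GCLC and GSR). Among all members pair 1 was highest in 22 (52.4%), against 35.1% of all tested genes.

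TXN, the cytosolic thioredoxin, showed the largest such difference of the 4. It was at 883 and 699.7 CPM in the control and BHB libraries of pair 1, at 317 and 378 CPM in pair 2 and at 327 and 439 CPM in pair 3. Both libraries of pair 1 lay above the other 4, and pair 1 was higher than pairs 2 and 3 by 1.18 and 1.05 on the log2 scale. FTH1, which stores iron, was at 3909 and 3881 CPM in pair 1, 2936 and 3165 CPM in pair 2 and 2460.4 and 2696 CPM in pair 3. Its libraries parted by pair with no overlap.

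PRDX3, the mitochondrial peroxiredoxin, followed the same order of pairs, at 135 and 120.0 CPM in pair 1, 86.6 and 93.6 CPM in pair 2 and 70.1 and 72.9 CPM in pair 3. PRDX1, a cytosolic peroxiredoxin, was at 2345 and 1989 CPM in pair 1, 1619.6 and 1902 CPM in pair 2 and 1380.2 and 1279 CPM in pair 3. For BHB, the log2 fold changes of these genes were -0.01 (TXN), 0.07 (FTH1), -0.02 (PRDX3) and -0.05 (PRDX1).

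**Figure D4:**
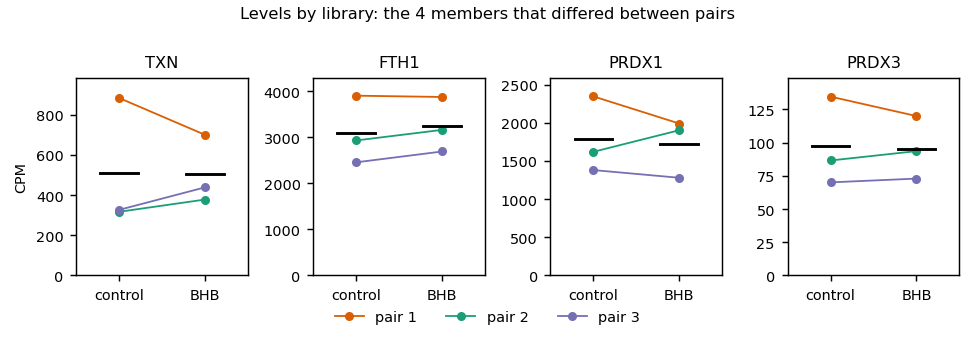
CPM (y axis, from 0) of the 4 members that differed between pairs in control and BHB libraries (x axis); points are libraries, coloured lines join a pair and black bars are group means. Pair 1 lies highest in all 4 genes, as in TXN with 883 and 699.7 CPM.

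All 4 calls were lost without pair 1, and those of FTH1, PRDX1 and PRDX3 were lost without pair 3 too. Fewer libraries remain whenever a pair is left out. Without pair 1, edgeR called 0 members between the remaining pairs, against 0.497% of all genes, with 10 at an unadjusted p under 0.05, against 15.1% of all genes. Without pair 2 the calls were TXN, FTH1, PRDX1, PRDX3 and PRDX6, against 5.79% of all genes, and without pair 3 they were TXN, TXNIP and GSR, against 4.09%. Markers of the trophectoderm also moved with pair: 5 of 13 tested markers passed between pairs (KRT8, KRT18, KRT19, SFN and DAB2), against 4.12% of all tested genes. The summed level of the list, given above by library, was lowest in the libraries of pair 3. Of inner cell mass markers 2 of 11 passed and of primitive endoderm markers 4 of 12, and the part of cell makeup in these differences was not tested. In pools, fewer cells of a type and less RNA per cell cannot be told apart.

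**Figure D5:**
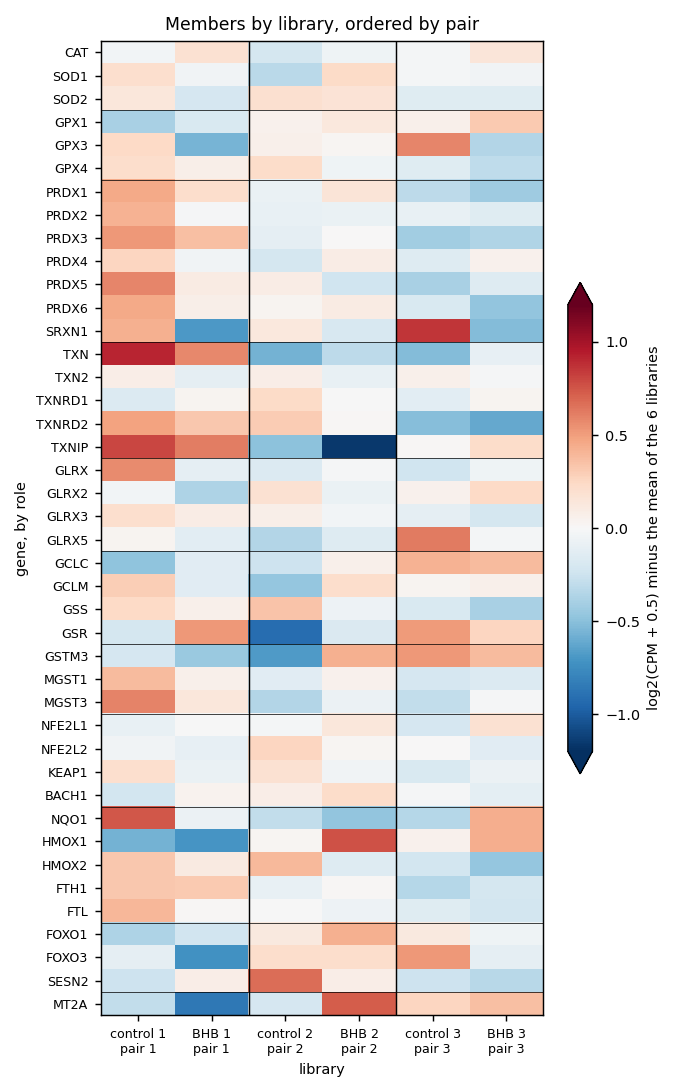
Each row is 1 of the 42 members, grouped by role, and each column a library, ordered by pair; colour is log2(CPM + 0.5) minus the mean of the 6 libraries, with the scale ending at -1.2 and 1.2. The rows of TXN, TXNIP, PRDX1, PRDX3 and FTH1 are red in both columns of pair 1, and the SRXN1 row is blue in the 3 BHB columns.

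The authors' deposited table gives 6 members an adjusted p under 0.05, against 5.04% of its genes. In the authors' deposited table these were TXN (adjusted p = 5.4e-09), FTH1 (adjusted p = 0.0035), PRDX1 (adjusted p = 0.0036), PRDX3 (adjusted p = 0.0051), PRDX6 (adjusted p = 0.021) and GSR (adjusted p = 0.046). That p-value comes from a model with pair and treatment set against a model with neither, as the refit showed, so it does not speak of BHB alone. With the sign turned to BHB over control, the log2 fold changes of these genes in the authors' deposited table ran from -0.21 (PRDX6) to 0.40 (GSR). SRXN1 had a log2 fold change of -0.99 and an adjusted p of 0.30 in the authors' deposited table.

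Genes around the members were taken from 8 lists, given here by counts and by the 2 genes of each list with the smallest unadjusted p for BHB. Of their 136 tested genes edgeR called 0 for BHB, against 0% of all tested genes. At an unadjusted p under 0.05 there were 5, 4 of them lower and 1 higher, against 2.73% of all tested genes. Of the 136, 83 had a negative log2 fold change (median -0.06), against 50.9% of all tested genes (median -0.005). That share also stands against the counts of each list below. The median difference of the 136 was -0.07, 0.03 and -0.08 on the log2 scale in pairs 1 to 3. Glutathione supply and turnover held 13 of 17 tested genes below 0 (median -0.10). OPLAH, which opens the oxoproline ring that glutathione breakdown leaves, was at 24.0, 23.1 and 13.2 CPM in control pools and 14.1, 10.2 and 11.1 CPM in BHB pools. ABCC2, an exporter of glutathione conjugates, was at 27.0, 26.4 and 14.7 CPM in control pools and 15.6, 15.4 and 10.1 CPM in BHB pools. In both, control library 3 reached down to the BHB range (log2 fold changes -0.76, SE 0.28, and -0.72, SE 0.29).

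NADPH supply held 9 of 11 genes below 0 (median -0.13), with the malic enzyme gene ME2 at -0.40 (SE 0.25) and the folate enzyme gene MTHFD1 at -0.19 (SE 0.14). Iron handling held 12 of 17 below 0 (median -0.08). The iron transporter gene SLC11A2 was at 412, 431 and 241 CPM in control pools and 319.9, 230.2 and 180.04 CPM in BHB pools. It was lower in 3 of 3 pairs (log2 fold change -0.57, SE 0.26, within pairs edgeR adjusted p = 0.25). ALAS1, the first enzyme of heme synthesis, was at -0.25 (SE 0.14).

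Other glutathione transferases held 3 of 9 genes below 0 (median 0.23), with GSTM1 at 0.50 (SE 0.35) and GSTCD at 0.23 (SE 0.19). Other NRF2 targets and partners held 11 of 17 below 0 (median -0.07), with UGT1A1 at -0.18 (SE 0.15) and the stress gene TRIB3 at 0.27 (SE 0.25). FOXO factors, targets and regulators held 13 of 26 below 0 (median 0.01). The 2 genes of that list with the smallest unadjusted p were IRS1 and AKT2. IRS1 was at 10.02, 11.5 and 8.34 CPM in control pools and 7.54, 5.12 and 6.13 CPM in BHB pools. AKT2 was at 5.21, 5.70 and 7.16 CPM and 11.5, 9.56 and 7.29 CPM. Neither overlapped between groups (log2 fold changes -0.67, SE 0.28, and 0.64, SE 0.29), as in 7.84% of all tested genes. At an edgeR unadjusted p under 0.05 the list held 1 lower gene and 0 higher genes, against 2.73% of all tested genes.

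Zinc and metal handling held 10 of 17 genes below 0 (median -0.002), with the zinc importer SLC39A6 at 0.36 (SE 0.18) and CCS, the copper chaperone of SOD1, at -0.48 (SE 0.31). Oxidant sources and repair held 12 of 22 below 0 (median -0.01). Its leading genes were the selenoproteins SELENOW, at 21.2, 19.6 and 28.3 CPM in control pools and 36.9, 55.8 and 58.8 CPM in BHB pools, and SELENOP, at 151, 140.4 and 111 CPM and 107.5, 96.5 and 85.6 CPM. Groups did not overlap in either, and they differed in opposite directions (log2 fold changes 1.13, SE 0.23, and -0.47, SE 0.16, edgeR adjusted p = 0.999 for both).

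Between pairs, 15 of the 136 tested genes of these lists passed edgeR's test, against 4.12% of all tested genes. Pair 1 was highest in MSRB1 and MSRB3, which repair oxidized methionine, AKR1A1, AKR1B1, BLVRB, DPEP1, CTH, ACO1, SLC11A2 and the iron exporter SLC40A1. MSRB1 was at 95.1 and 98.1 CPM in pair 1 and at 31.6 to 37.9 CPM in the other 4 libraries (adjusted p = 0.0019). Pair 1 was lowest in the transferases GSTA1, GSTA3 and MGST2 and in XDH, the xanthine dehydrogenase gene. GSTA3 was at 5.61 and 3.37 CPM in pair 1 and at 12.9 to 31.6 CPM in the others (adjusted p = 0.032), and XDH at 3.74 and 4.45 CPM against 10.9 to 16.8 CPM (adjusted p = 0.024). CITED2, a FOXO target, was highest in pair 3. The MT1E row with a suffix shared the low side, with adjusted p = 0.023 between pairs.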

How the data were processed

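Day 7 bovine blastocyst pools (3 control, 3 BHB) were profiled by RNA-seq of polyadenylated RNA with a stranded kit, per the labels' protocols. The authors deposited whole-number counts per gene, not normalized; STAR, featureCounts and DESeq2 were used, per the submitters' processing notes, and no source used here states a version, genome build, annotation or strand setting. The authors' deposited table of results holds a mean count (a linear signal), a log2 fold change (control over BHB) with its error, a score as test statistic, and p-values before and after adjustment.

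Groups come from the treatment label and replicate numbers follow the order of deposit. The table holds 12826 genes (smallest total 38 counts); filterByExpr kept 12732. The treatment term was tested with edgeR's quasi-likelihood method on TMM-normalized counts without covariates, fitted on all genes, with Benjamini-Hochberg adjustment at 0.05 (R 4.3.3, edgeR 4.0.16); limma 3.58.1 (voom) and DESeq2 1.42.0 were alternatives. SE is the log2 fold change over the square root of F. A DESeq2 likelihood ratio test of pair and treatment against neither gave the authors' deposited p-value within 1e-06 in 99.98% of genes when libraries of the same number were paired, and in at most 0.398% under the other 5 pairings. Since the refit recovered this pairing, it was used as a replicate block. Deviations from group means correlated at 0.46, 0.32 and 0.33 within the pairs, and this was not computed for other pairings. The members and gene lists were chosen with earlier results of these data known. Named genes were a fixed set of FOXO, metallothionein, dismutase, catalase and regulator genes, members at an unadjusted p under 0.05 in either fit, called between pairs or without overlap, and of each other list the 2 smallest p and any called; further named genes were picked with their values in view. The edgeR script was tested on simulated data of 12531 genes, all given 1 common unpaired spread. Changed genes were drawn only from those above a floor of counts. Of genes changed 1.5-, 2- and 4-fold, 2.99%, 35.8% and 100% were called. These rates do not cover members with few counts, such as GPX3, or with a wider spread.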

Additional observations from a re-analysis of the deposited data

How the results depend on the processing

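No alternative called a member for BHB. The number of all genes called was 6 with DESeq2's Wald test, 35 with DESeq2 and the replicate block, 4, 16 and 4 with edgeR and the replicate block without pair 1, 2 or 3, and 0 to 1 when 1 library was left out. The members' median log2 fold change ran from -0.18 (without control library 3) to 0.023 (without control library 1) when 1 library was left out, and was 0.0048 without pair 1 and 0.00045 without pair 1 with the replicate block. The alternatives without a pair were chosen after seeing the data. Scaling by library size alone moved the median of all genes to 0.06 and gave the opposite sign for PRDX1 (0.023), PRDX3 (0.051), TXN (0.073), MGST1 (0.023) and MGST3 (0.044). limma-voom did so for PRDX3 (0.0091), TXN (0.12) and MGST3 (0.045). The replicate block did so for TXN (0.11 in edgeR, 0.11 in DESeq2) and MGST3 (0.025 in both) and changed no call of a member. The direction was the same in every alternative run on single members for 19 members, SRXN1 and FOXO3 among them. In the other 23, none of them called for BHB, it turned when 1 library was left out: SOD1 (-0.038 to 0.22), PRDX1 (-0.20 to 0.20), PRDX2 (-0.27 to 0.015), PRDX3 (-0.22 to 0.29), PRDX4 (-0.027 to 0.22), PRDX5 (-0.45 to 0.046), TXN (-0.32 to 0.65), TXNRD1 (-0.039 to 0.17), TXNRD2 (-0.52 to 0.035), TXNIP (-0.58 to 0.32), GLRX (-0.30 to 0.15), GLRX2 (-0.29 to 0.018), GLRX5 (-0.47 to 0.047), GCLC (-0.0059 to 0.48), GCLM (-0.12 to 0.25), GSTM3 (-0.042 to 0.64), MGST1 (-0.15 to 0.16), MGST3 (-0.20 to 0.35), NQO1 (-0.44 to 0.38), FTH1 (-0.082 to 0.27), FOXO1 (-0.12 to 0.25), SESN2 (-0.33 to 0.21) and MT2A (-0.072 to 0.65). Between pairs, leaving out pair 1 took the members called from 4 to 0 and all genes called from 524 to 63; without it fewer libraries remain. Scaling by library size alone left 3 members called, without PRDX1. Under the stricter filter 39 members were tested. GPX3 had as few as 7 counts in a library, which limits its precision. Where not stated, the cause of a change was not tested.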
